A study of Mus musculus with 6 samples.

Results

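The subunit genes of oxidative phosphorylation were read in arrays labelled as hearts of Sp3 knockout mouse embryos, set against arrays labelled as wildtype hearts. Members were the genes whose symbols name a subunit of complexes I to V of the inner mitochondrial membrane (Nduf with a letter a, b, c, s or v and a digit, Sdha to Sdhd, Uqcr, Cox4 to Cox8, and Atp5). There were 81 such genes among 18193 with a probe set of their own, of which 35 belonged to complex I, 4 to complex II, 8 to complex III, 17 to complex IV and 17 to complex V. Each gene was read at its brightest single-gene probe set, a group of short probes for 1 transcript. The labels gave 3 knockout and 3 wildtype arrays at stage E12.5 (embryonic day), with the samples of each group lettered a to c, and stated that each held RNA of a single heart. They gave no strain, sex or construction of the knockout allele. Every p-value rests in part on how much these 3 samples of a group vary, and precision is limited by the small number of arrays. In limma, the test used for single genes, the spread of a probe set is also drawn towards that of probe sets of like intensity. With no intensity trend and no robust estimation the members lower at an unadjusted p under 0.05 numbered 0, against 13 in the main fit.

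Oxidative phosphorylation moves electrons from NADH and succinate to oxygen and uses the energy to make ATP. Complex I accepts electrons from NADH and complex II from succinate, complex III passes them to cytochrome c, complex IV hands them to oxygen, and complex V makes ATP from the proton gradient that complexes I, III and IV build. Most subunits are encoded in the nucleus and made in nearly every cell. Some complex IV subunits have a second gene that is used in heart and skeletal muscle, lung or testis, and the heart changes to its muscle isoforms as it matures. Sp3, a transcription factor with zinc fingers, recognises GC boxes, which are short GC-rich elements of promoters.

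Sp3 itself was measured first, as a check of the labels. Its level, the log2 of the deposited intensity, was 8.39, 8.34 and 8.61 in the knockout arrays, against 9.87, 9.77 and 9.54 in the wildtype arrays. The difference, knockout minus wildtype, was -1.27 (SE 0.125, limma adjusted p = 0.00254). Array median intensities lay between 22.5 and 26.7. Most heart muscle markers were low in these arrays labelled heart, whereas liver and red cell transcripts were near the top of the scale. Over 17 cardiomyocyte markers the median level stood at the 38.1th percentile of all genes and 10 were below the median probe set. The hepatocyte markers (10 of 12 listed) stood at the 98.7th percentile and the erythroid markers (7 of 10 listed) at the 98.2th. The values below therefore describe the RNA on the arrays and cannot be assigned to heart muscle cells.

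In the knockout arrays 63 of the 81 subunit genes had a lower mean and 18 a higher mean, with a median difference of -0.096 on the log2 scale. No member passed the test across all probe sets, limma with Benjamini-Hochberg adjustment, against 0.0495% of all genes (9 of 18193) and 0.0% of 840 genes of like level. The smallest adjusted p among members was 0.47. At an unadjusted p under 0.05 there were 13 members lower and 3 higher in the knockout. The count of 13 was 6 without knockout a, 7 without knockout c, 8 without wildtype a and 25 without knockout b. The same rule took 5.51% of all genes lower and 3.2% higher, and 11.3% and 2.38% of genes of like level. In bulk RNA, fewer cells of a type and less RNA per cell cannot be told apart.

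The subunit genes were bright, and on the deposited scale bright genes as a class had lower means in the knockout arrays. Of the 81 members, 71 lay in the brightest of 10 level classes of the probe sets, where the median spread between replicates was 0.125, against 1.267 in the dimmest class (residual SD, log2 scale). The 840 genes at or above the members' lower quartile of level, 10.21, include 61 of the members. Of these 840 genes 70.6% had a lower mean in the knockout, with a median difference of -0.069, against 52.5% of all genes, with a median of -0.02. The 61 members in that class had a lower mean in 52 cases and a median of -0.1. The shares depended on the scaling of the arrays. Over all 81 members 77.8% had a lower mean as deposited, 60.5% under quantile normalization, which gives all arrays 1 distribution, and 90.1% under median centring. For the like-level genes quantile normalization gave 53.2% and median centring 86.0%.

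Another count, which takes more genes than the unadjusted p, is of genes whose 3 knockout arrays all lay below the 3 wildtype arrays, or all above them. There were 20 members lower without overlap (24.7%) and 3 higher. The rule took 9.04% of all genes lower and 6.02% higher, and 15.4% and 3.33% of genes of like level. Of the 61 members in the like-level class 17 were lower without overlap, or 27.9%. The 3 members higher without overlap were Ndufv3, an accessory subunit of complex I, and Cox6a2 and Cox8c, tissue-restricted isoforms of complex IV.

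**Figure D1:**
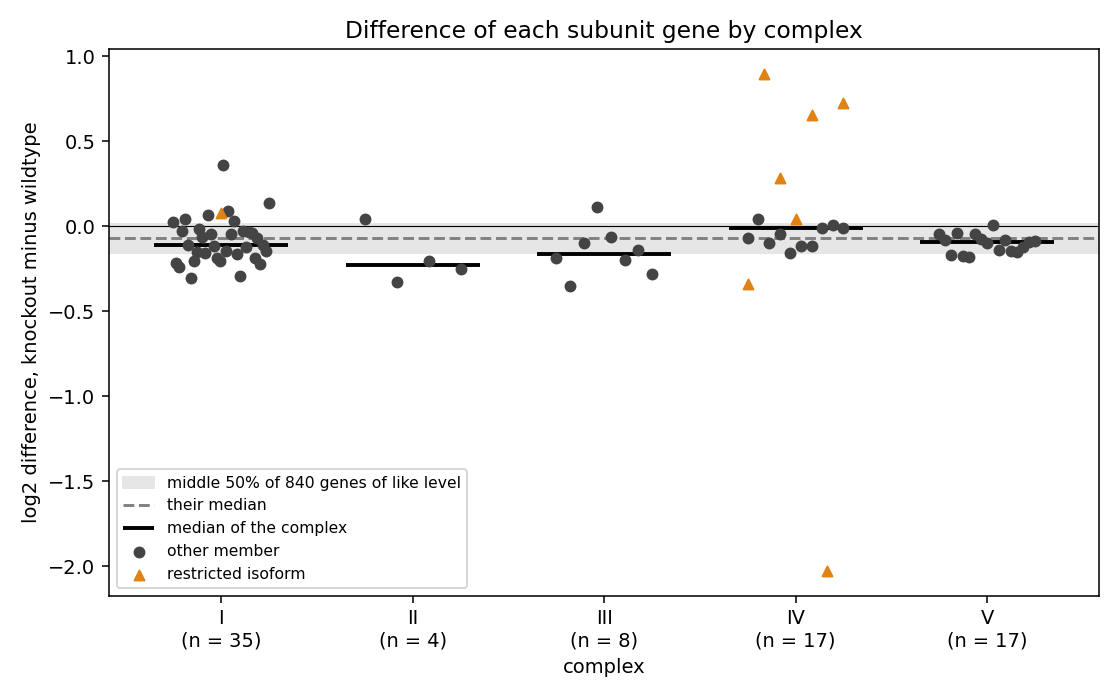
Log2 difference, knockout minus wildtype, of each of the 81 subunit genes (vertical axis) by complex (horizontal axis). Circles are widely expressed subunits, triangles tissue-restricted isoforms, black bars the median of each complex, and the grey band and dashed line the middle 50% and the median of 840 genes of like level. Most circles lie between -0.35 and 0.14, while the triangles of complex IV spread from -2.03 to 0.89.

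The median difference was -0.109 in complex I, -0.228 in complex II, -0.165 in complex III, -0.012 in complex IV and -0.094 in complex V. Leaving the 7 tissue-restricted isoforms out of complex IV gave -0.056 for its other 10 genes. On this scale complexes II and III had the largest medians in size. All 5 medians stayed below 0 under the other 2 scalings of the arrays. Quantile normalization gave -0.038, -0.155, -0.107, -0.023 and -0.036 for complexes I to V. Median centring gave -0.185, -0.304, -0.241, -0.088 and -0.171. The like-level genes moved with the scaling as well, to -0.01 under quantile normalization and -0.145 under median centring. With the mean of all probe sets of a gene in place of the brightest, the medians were -0.065, -0.071, -0.12, 0.012 and -0.092 for complexes I to V, so that complex II no longer came before complex V.

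**Figure D2:**
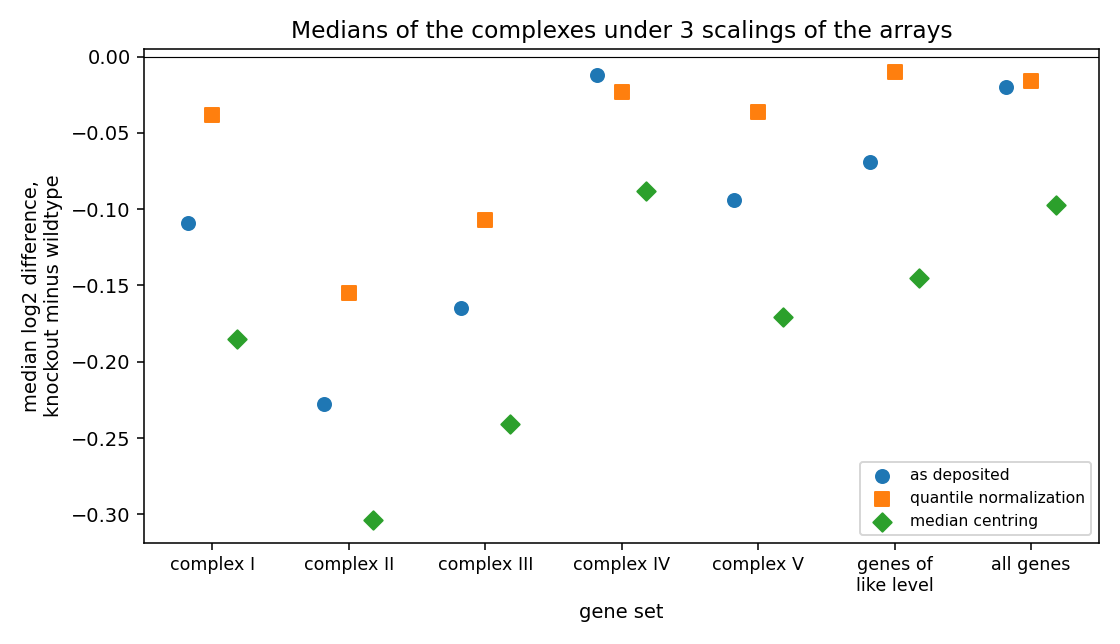
Median log2 difference, knockout minus wildtype (vertical axis), of complexes I to V, of genes of like level and of all genes (horizontal axis), under the deposited scale and 2 other scalings of the arrays. Every symbol lies below 0, and complexes II and III are the lowest gene sets under each scaling.

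Array by array, each gene was expressed as its level minus its mean over the 6 arrays, and the median over a complex was taken. For complex II these medians were -0.157, -0.035 and -0.088 in knockout arrays a to c, against 0.079, 0.156 and 0.161 in wildtype arrays a to c. For complex III they were -0.07, -0.028 and -0.177, against 0.028, 0.098 and 0.136. In these 2 complexes the groups did not overlap, on the deposited scale or under either other scaling. For complex I the medians were -0.08, 0.02 and -0.052 in the knockout arrays, against 0.03, -0.003 and 0.128 in the wildtype arrays, and for complex V -0.093, 0.014 and -0.085, against 0.076, 0.006 and 0.054. Knockout b lay above 1 wildtype array in both. For complex IV the medians were -0.055, 0.063 and -0.072 in the knockout arrays, against 0.035, 0.033 and -0.005 in the wildtype arrays. Knockout b was the highest of the 6 arrays there. The medians of the like-level genes were -0.049, 0.021 and -0.061 in the knockout arrays, against 0.042, 0.013 and 0.047 in the wildtype arrays, where knockout b again lay above wildtype b.

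**Figure D3:**
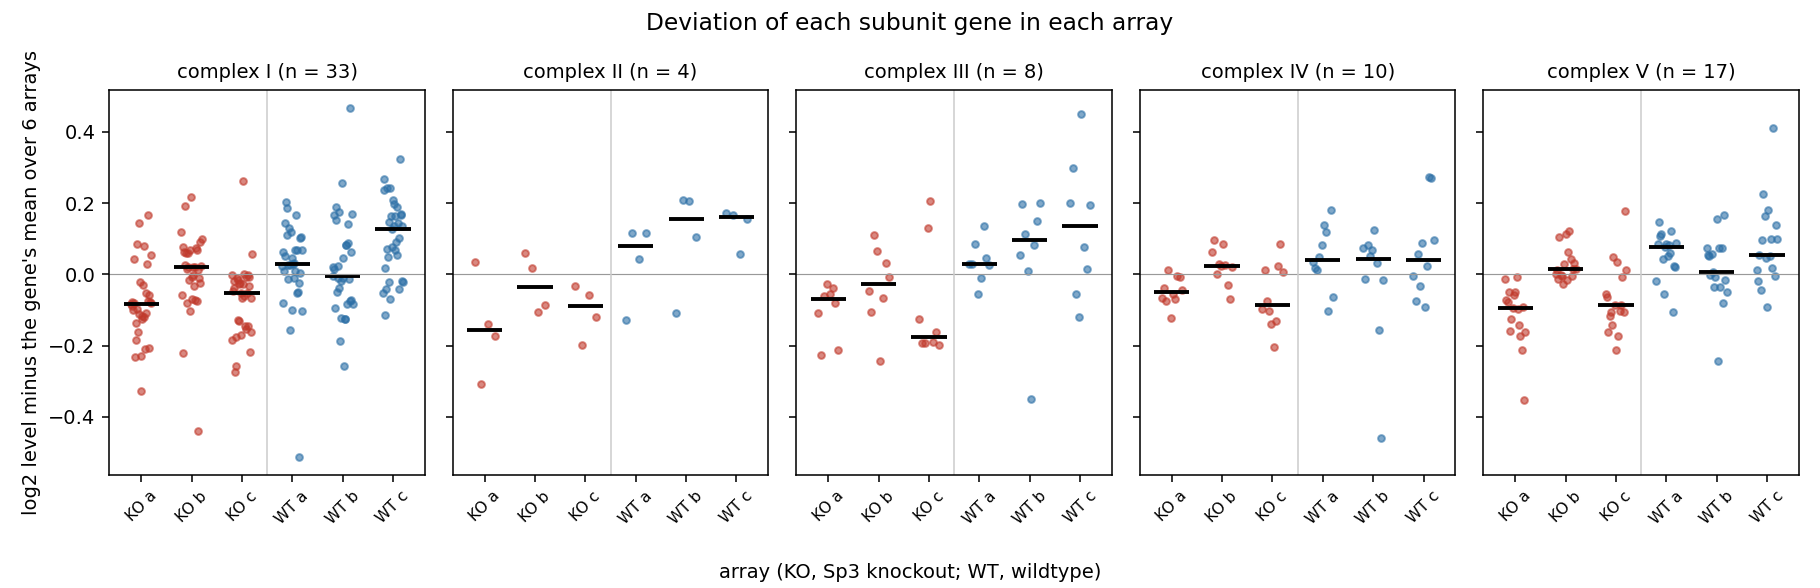
Level of each subunit gene in each array minus its mean over 6 arrays, in log2 units (vertical axis), for the 3 knockout and 3 wildtype arrays (horizontal axis) of complexes I to V. Each point is 1 gene, black bars are medians over the points drawn, and tissue-restricted isoforms and Ndufb4, which is dim, are not drawn. In complexes II and III every knockout bar lies below every wildtype bar.

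Promoter sequences were looked at for the GC box and for 3 motifs known from nuclear genes of mitochondrial proteins. The windows, 250 bases before to 50 bases after the start, came from RefSeq on build GRCm38.p6 and were found for 66 of the 81 genes. The letters searched on both strands were GGGCGG for the GC box, CGCATGCG for the NRF1 core, CCGGAAG for the ETS core and AAGATGGCG for the YY1 core, and no motif contains another. A GC box was present for 42.4% of the members, against 71.8% of 712 genes of like level and 38.2% of all 27025 genes in the table. The ETS core was present for 25.8% of members, against 24.3% and 9.93%. The NRF1 core was present for 12.1%, against 5.76% and 2.07%, and the YY1 core for 9.09%, against 4.21% and 1.64%. Of the 5 complex III genes with a window 0 held a GC box and 2 held the NRF1 core, and of the 3 complex II genes 2 held a GC box. These are matches of letters and not measured binding sites. For each complex, the 150 bases before the start are printed beside the member of smallest unadjusted p, tissue-restricted isoforms left aside, with motif matches in capitals.

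Complex I, the NADH dehydrogenase, had 27 of 35 genes with a lower mean in the knockout, 8 of them without overlap. The 8 were 22.9% of the complex, against 15.4% of like-level genes and 9.04% of all genes. Under quantile normalization 18 of 35 had a lower mean, so the direction of the complex as a count rests on the scaling. The 6 core subunits measured here, which carry the flavin and iron-sulfur clusters or lie beside them, all had a lower mean, with a median of -0.116. Under quantile normalization 4 of the 6 did. Ndufv1, which binds NADH and the flavin, differed by -0.113 (SE 0.09), and Ndufs1, an iron-sulfur subunit, by -0.12 (SE 0.093). Ndufv2, another iron-sulfur subunit, differed by -0.146 (SE 0.079), and Ndufs7, which lies near the ubiquinone site, by -0.067 (SE 0.089).

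Ndufs8, the core subunit with a pair of iron-sulfur clusters, had 6 probe sets. Its brightest read 11.23, 11.53 and 11.22 in the knockout arrays, against 11.54, 11.50 and 11.60 in the wildtype arrays. The difference was -0.222 (SE 0.09, limma adjusted p = 0.665). Knockout b lay at the level of the wildtype arrays. Over the 6 probe sets the differences ran from -0.427 to 0.05, and 5 were below 0.

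Among accessory subunits, which surround the core, Ndufc1 and Ndufa4 differed by the most among those above the median level. Ndufc1 read 10.58, 10.72 and 10.64 in the knockout arrays, against 10.96, 10.88 and 10.98 in the wildtype arrays. The groups were apart by more than either group's range, and the difference was -0.292 (SE 0.081, limma adjusted p = 0.51). Its second probe set read 9.85, 10.02 and 9.80 in the knockout, against 10.18, 10.40 and 10.24 in the wildtype, a difference of -0.382. The stretch before its start (chr3:51408956-51409105, minus strand) is printed here and held none of the 4 motifs, and the full 300-base window held a YY1 core outside it.
Ndufc1: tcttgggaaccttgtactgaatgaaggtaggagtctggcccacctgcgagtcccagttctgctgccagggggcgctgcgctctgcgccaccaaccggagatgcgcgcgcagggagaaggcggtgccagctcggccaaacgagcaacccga

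Ndufa4 is named for complex I and was grouped there by its symbol, although the protein is now known to bind complex IV. It read 11.10, 11.36 and 11.07 in the knockout arrays, against 11.53, 11.52 and 11.40 in the wildtype arrays. The groups did not overlap on the deposited scale but did under quantile normalization and median centring. The difference was -0.307 (SE 0.089, limma adjusted p = 0.529).

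Ndufa12 was read by 4 probe sets and differed by -0.238 (SE 0.095) at the brightest. The next 2 in brightness differed by -0.226 and -0.246, and the dimmest, at a level of 6.08, by 0.241. The other accessory genes lower without overlap on the deposited scale were Ndufa6, Ndufa10, Ndufb3, Ndufb5, Ndufb9 and Ndufb11, with differences from -0.214 in Ndufa10 to -0.119 in Ndufb11. For Ndufa6, knockout c and wildtype b both read 10.20 after rounding. Ndufa6, Ndufb5 and Ndufb11 had overlapping groups under quantile normalization. The second probe set of Ndufb5, at a level of 10.34, differed by 0.013 with overlap. When the probe sets of Ndufa10 were averaged its difference was 0.781, through a dim probe set at a level of 3.98 that differed by 1.776. Of 28 accessory genes, Ndufa4l2 left aside, 7 had a higher mean, and Ndufv3 was the only one of them higher without overlap on the deposited scale. It read 10.37, 10.41 and 10.37 in the knockout arrays, against 10.21, 10.23 and 10.29 in the wildtype arrays, a difference of 0.139 (SE 0.083, limma adjusted p = 0.743). The groups overlapped under median centring. Ndufb4, the complex I gene below the median level, had the highest difference of the complex, 0.359, with an SE of 0.787. Ndufa1 and Ndufb11 are the 2 members on the X chromosome, and Ndufa1 differed by 0.022 (SE 0.079).

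Complex II is succinate dehydrogenase, an enzyme of the citric acid cycle that also feeds electrons to ubiquinone. Sdhb, Sdhc and Sdhd were each lower in the knockout without overlap, and Sdha was not. Complexes II and III are described gene by gene because of their array medians, a choice made after the values were seen. Sdhb, the iron-sulfur subunit, read 10.55, 10.88 and 10.66 in the knockout arrays, against 10.98, 11.07 and 11.03 in the wildtype arrays. Knockout b was the nearest to the wildtype range. The ratio of knockout to wildtype was 0.797 and the difference -0.327 (SE 0.093, limma adjusted p = 0.52). The stretch before its start (chr4:140961121-140961270, plus strand) held 2 GC boxes, and the full window also an ETS core outside it.
Sdhb: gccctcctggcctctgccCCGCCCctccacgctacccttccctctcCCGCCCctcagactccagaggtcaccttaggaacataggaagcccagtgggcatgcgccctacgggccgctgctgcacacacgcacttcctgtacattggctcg

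Sdhc and Sdhd anchor the enzyme in the membrane. Sdhd read 10.33, 10.41 and 10.38 in the knockout arrays, against 10.62, 10.61 and 10.66 in the wildtype arrays. All 3 knockout values lay close together and below the lowest wildtype value, and the difference was -0.252 (SE 0.081, limma adjusted p = 0.596). Sdhc read 9.60, 9.64 and 9.69 in the knockout arrays, against 9.79, 9.95 and 9.80 in the wildtype arrays, a difference of -0.203 (SE 0.096). Its groups overlapped under quantile normalization. The second probe set of Sdhc, at a level of 8.01, differed by 0.269 and that of Sdhd, at 7.70, by -0.096.

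Sdha is the flavoprotein that oxidises succinate. It read 10.74, 10.76 and 10.67 in the knockout arrays, against 10.58, 10.60 and 10.88 in the wildtype arrays. Wildtype c stood above the knockout arrays and the other wildtype arrays below them, and the difference was 0.041 (SE 0.096). A second bright probe set of Sdha read 10.01, 10.04 and 9.68 in the knockout, against 10.03, 10.40 and 10.23 in the wildtype, a difference of -0.308. The 2 bright probe sets of this gene thus differed in sign. When the probe sets of each gene were averaged, Sdha and Sdhc lay above 0, at 0.411 and 0.033, and Sdhb and Sdhd below it. The average of Sdha includes dimmer probe sets at levels of 5.84 and 2.06, which differed by 0.461 and 1.452.

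**Figure D4:**
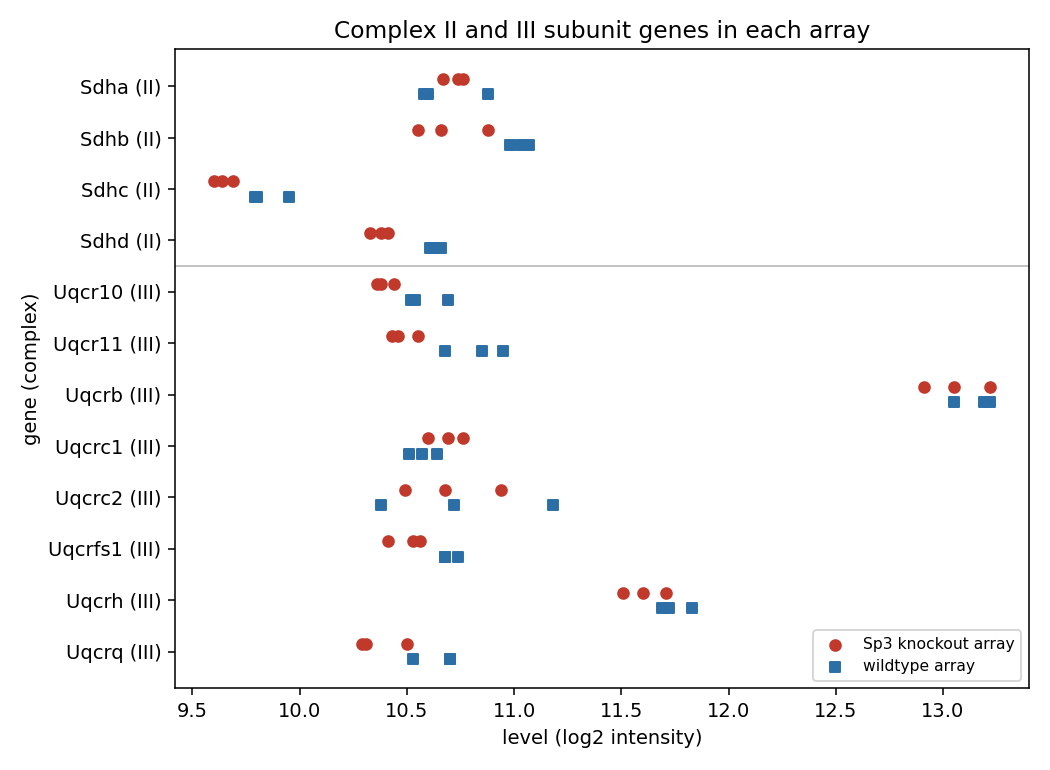
Level of each complex II and complex III subunit gene in each array (horizontal axis, log2 intensity), with 1 row per gene. Circles are the 3 knockout arrays and squares the 3 wildtype arrays. The circles lie left of all squares for Sdhb, Sdhc, Sdhd, Uqcr10, Uqcr11, Uqcrfs1 and Uqcrq.

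Complex III, the cytochrome bc1 complex, had 7 of 8 genes with a lower mean in the knockout (6 of 8 under quantile normalization), and 4 were lower without overlap. Its 5 small subunits, which wrap the core, were lower in 5 of 5 under all 3 scalings, with a median of -0.189. Uqcr11, the smallest of them, read 10.43, 10.55 and 10.46 in the knockout arrays, against 10.68, 10.85 and 10.95 in the wildtype arrays. It had the smallest unadjusted p of all 81 members. The ratio was 0.785 and the difference -0.35 (SE 0.092, limma adjusted p = 0.47). The stretch before its start (chr10:80406822-80406971, minus strand) held 1 ETS core, and the full window also an NRF1 core outside it.
Uqcr11: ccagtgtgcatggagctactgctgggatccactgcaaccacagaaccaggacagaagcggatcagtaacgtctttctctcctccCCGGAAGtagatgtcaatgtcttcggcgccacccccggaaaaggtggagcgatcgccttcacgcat

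Uqcrq, which binds beside cytochrome b, read 10.29, 10.50 and 10.31 in the knockout arrays, against 10.53, 10.70 and 10.70 in the wildtype arrays. The gap between knockout b and wildtype a was small, and the difference was -0.279 (SE 0.093, limma adjusted p = 0.612). The other 3 probe sets of Uqcrq were dim and differed by 0.81, 0.509 and -0.395, which gave 0.161 for the mean of its probe sets. Uqcr10 read 10.38, 10.44 and 10.36 in the knockout arrays, against 10.52, 10.54 and 10.69 in the wildtype arrays, a difference of -0.189 (SE 0.086, limma adjusted p = 0.697). Uqcrh, the hinge protein that helps dock cytochrome c, differed by -0.141 (SE 0.076), and Uqcrb by -0.096 (SE 0.077), both with overlapping groups.

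The 3 core genes of complex III differed among themselves at their brightest probe sets. Uqcrfs1, the Rieske iron-sulfur protein that passes electrons on towards cytochrome c, read 10.56, 10.53 and 10.41 in the knockout arrays, against 10.74, 10.68 and 10.68 in the wildtype arrays. Its groups did not overlap under any of the 3 scalings, and the difference was -0.198 (SE 0.083, limma adjusted p = 0.674). Uqcrc1 and Uqcrc2 are the large core proteins on the matrix side. Uqcrc1 read 10.60, 10.69 and 10.76 in the knockout arrays, against 10.57, 10.64 and 10.51 in the wildtype arrays, a difference of 0.111 (SE 0.084). Uqcrc2 read 10.68, 10.49 and 10.94 in the knockout arrays, against 10.72, 10.38 and 11.18 in the wildtype arrays, a difference of -0.061 (SE 0.203). At this probe set the arrays varied more within each group than between the groups. The second probe set of Uqcrc2, at a level of 10.36, read 10.25, 10.32 and 10.25 in the knockout arrays, against 10.42, 10.49 and 10.42 in the wildtype arrays. Its difference was -0.168, without overlap. Cyc1, the cytochrome c1 of the same complex, which the symbol rule does not take in, differed by -0.108 (SE 0.076).

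In complex IV, cytochrome c oxidase, widely expressed genes and restricted isoforms are described in turn. Of its 10 widely expressed genes 8 had a lower mean in the knockout, 2 of them without overlap, and under quantile normalization 6 did. Cox6b1, which faces the intermembrane space, read 12.31, 12.45 and 12.29 in the knockout arrays, against a mean of 12.511 ± 0.01 in the wildtype arrays (SD, n = 3). The wildtype arrays lay close together above all knockout arrays, and the difference was -0.158 (SE 0.064, limma adjusted p = 0.665). Its second probe set differed by -0.142. The stretch before its start (chr7:30626115-30626264, minus strand) held 1 ETS core.
Cox6b1: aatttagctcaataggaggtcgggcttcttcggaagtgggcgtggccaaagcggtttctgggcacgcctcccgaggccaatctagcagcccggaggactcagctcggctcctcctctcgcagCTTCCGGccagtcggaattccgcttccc

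Cox5b, a zinc-binding subunit, was the other one lower without overlap, by -0.1 (SE 0.059), and its next 3 probe sets in brightness differed by -0.068, -0.145 and -0.113. Cox4i1 differed by -0.069 (SE 0.068), Cox7a2 by -0.117 (SE 0.062) and Cox6a1 by -0.043 (SE 0.062), all with overlapping groups. The second probe set of Cox7a2, at a level of 11.55, differed by -0.224 without overlap. That of Cox6a1, at 11.27, differed by -0.024 with overlap. Cox5a differed by 0.045 (SE 0.071) at its brightest probe set, by -0.093 at the second and by 0.254 at the third, where the knockout arrays lay above the wildtype arrays. Cox7a2l, whose product joins complexes III and IV into supercomplexes and which the symbol rule places in complex IV, differed by -0.008 (SE 0.118). Its other probe sets, at levels of 9.77 and 9.13, differed by 0.204 and 0.198, with overlapping groups.

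Of the 8 tissue-restricted isoforms 4 were below the median probe set, and 6 had a higher mean in the knockout. Cox6a2, the heart and skeletal muscle form of subunit VIa, read 5.37, 5.01 and 5.05 in the knockout arrays, against 4.67, 3.68 and 4.39 in the wildtype arrays. The groups did not overlap under any of the 3 scalings, and the difference was 0.893 (SE 0.365, limma adjusted p = 0.665). With 16 intensity units added before log2, which damps the differences of dim genes, it was 0.538. Cox8c, a testis form of subunit VIII, read 5.28, 5.81 and 6.24 in the knockout arrays, against 4.92, 4.97 and 5.25 in the wildtype arrays. Knockout a was close to wildtype c, and the difference was 0.726 (SE 0.294, limma adjusted p = 0.665). Cox6b2, the testis form of subunit VIb, read 10.03, 10.04 and 9.72 in the knockout arrays, against 9.50, 9.84 and 9.60 in the wildtype arrays, a difference of 0.285 (SE 0.123, limma adjusted p = 0.68). Its groups overlapped at knockout c and wildtype b.

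The other restricted isoforms had overlapping groups on the deposited scale. Cox7a1, the muscle form of subunit VIIa, read 3.81, 4.04 and 3.75 in the knockout arrays, against 3.28, 4.59 and 3.59 in the wildtype arrays, a difference of 0.043 (SE 0.528). Cox8b, the muscle form of subunit VIII, read 1.47, 1.34 and -0.20 in the knockout arrays, against 3.99, 1.38 and 3.32 in the wildtype arrays. It is among the dimmest members, and the difference of -2.03 had an SE of 1.05. With 16 intensity units added before log2 it was -0.465. Its groups overlapped on the deposited scale and did not under quantile normalization or median centring. Cox4i2, the lung form of subunit IV, differed by -0.34 (SE 0.648), and Cox7b2, a testis form, by 0.656 (SE 1.14), both below the median level. Ndufa4l2, a hypoxia-linked relative of Ndufa4, read 6.59, 3.06 and 6.84 in the knockout arrays, against 4.63, 6.03 and 5.61 in the wildtype arrays. Knockout b was the lowest of the 6 arrays and the other knockout arrays were the highest.

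Each restricted isoform was also set against its widely expressed counterpart within each array, which removes a scaling factor common to the array. The difference between groups in this log2 ratio was 0.937 for Cox6a2 over Cox6a1, 0.444 for Cox6b2 over Cox6b1 and 0.737 for Cox8c over Cox8a, each with no overlap between groups. In an exact two-sided permutation test over 20 assignments each of these 3 pairs had p = 0.1, the smallest that 3 arrays against 3 allow, and an adjusted p of 0.233 over 7 pairs. For Cox8b over Cox8a the difference was -2.02 (exact permutation p = 0.2), and for Ndufa4l2 over Ndufa4 it was 0.383 (p = 0.9). For Cox4i2 over Cox4i1 it was -0.272, and for Cox7a1 over Cox7a2 0.16 (exact permutation p = 0.7 for both). At 3 arrays against 3 no pair could reach a p under 0.05, so this test cannot decide for any pair. With 16 units added the difference was 0.582 for Cox6a2 over Cox6a1, -0.453 for Cox8b over Cox8a and -0.068 for Cox4i2 over Cox4i1. When the probe sets of each gene were averaged, the Cox8c over Cox8a difference was -0.06, through a dim probe set of Cox8a at a level of 2.65 that differed by 1.84.

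**Figure D5:**
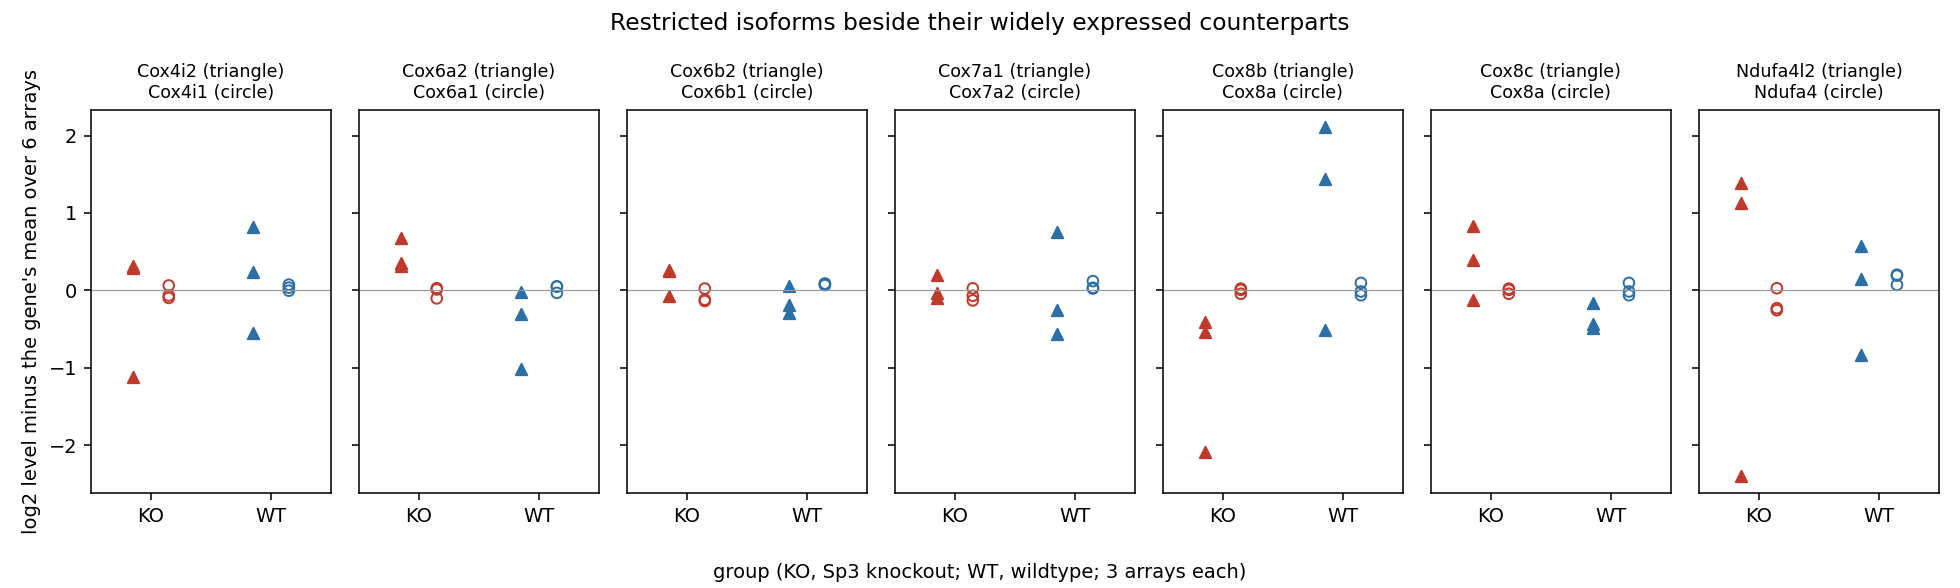
Level minus the gene's mean over 6 arrays, in log2 units (vertical axis), of 7 tissue-restricted isoforms (triangles) and their widely expressed counterparts (circles), in knockout (KO) and wildtype (WT) arrays (horizontal axis, 3 arrays each). The triangles of Cox6a2 and Cox8c lie higher in the 3 knockout arrays than in the 3 wildtype arrays, and those of Cox4i2, Cox6b2, Cox7a1, Cox8b and Ndufa4l2 overlap.

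Markers of other cells are given beside these isoforms. Of the 17 cardiomyocyte markers 13 had a higher mean in the knockout, with summed intensities of 1134, 1221 and 1025 in the knockout arrays, against 1131, 472 and 606 in the wildtype arrays. Of 10 skeletal muscle markers 9 were higher, with sums of 570, 546 and 241, against 497, 206 and 310. Of 8 male germ cell markers 6 were higher, with sums of 173, 189 and 130, against 77.8, 76.5 and 56.1, and 7 of the 8 were below the median probe set. Dmc1, the brightest of them, read 6.38, 6.81 and 6.11 in the knockout arrays, against 4.27, 3.67 and 4.17 in the wildtype arrays (limma adjusted p = 0.0139). It was the only germ cell marker without overlap, and most of the gap between the sums came from it. The part that muscle and germ cells have in the values of Cox6a2, Cox6b2 and Cox8c was not tested.

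The differences of complex V, the ATP synthase, lay in a narrow range. Of its 17 genes 16 had a lower mean in the knockout, in a range from -0.183 to 0.007. The 3 lower without overlap were 17.6% of the complex, close to the 15.4% of like-level genes, and 9.04% of all genes were. Under quantile normalization 13 of the 17 had a lower mean, with Atp5a1, Atp5d, Atp5g2 and Atp5j above 0. In the F1 head and central stalk, where ATP is made, Atp5c1, the rotating gamma subunit, read 11.91, 11.98 and 11.83 in the knockout arrays, against 12.14, 12.04 and 12.05 in the wildtype arrays. The groups lay close together without overlap, and the difference was -0.169 (SE 0.068, limma adjusted p = 0.665). RefSeq gave 2 windows for this gene, and neither held any of the 4 motifs. The stretch before the start of the first (chr2:10080511-10080660, minus strand) is printed.
Atp5c1: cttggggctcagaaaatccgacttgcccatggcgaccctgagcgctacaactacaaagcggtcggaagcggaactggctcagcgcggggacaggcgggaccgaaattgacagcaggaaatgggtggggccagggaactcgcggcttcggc

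Atp5e, the epsilon subunit of the central stalk, read 10.51, 10.67 and 10.56 in the knockout arrays, against 10.78, 10.72 and 10.76 in the wildtype arrays, a difference of -0.177 (SE 0.082). The alpha and beta subunits that form the catalytic sites differed by less, Atp5a1 by -0.045 (SE 0.063) and Atp5b by -0.082 (SE 0.062), and Atp5d, the delta subunit, by -0.041 (SE 0.085). The c ring, the rotor in the membrane, is encoded by 3 genes for the same mature protein. Atp5g1 read 10.79, 10.91 and 10.77 in the knockout arrays, against 10.96, 10.92 and 11.14 in the wildtype arrays, a difference of -0.183 (SE 0.087). Knockout b lay just below wildtype b. Atp5g2 differed by -0.048 and Atp5g3 by -0.076. The peripheral stalk genes Atp5pb, Atp5h and Atp5o differed by -0.098 to -0.089, and Atp5j, of the same stalk, by 0.007. The 5 other membrane subunits differed by -0.15 to -0.082.

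Other genes of the pathway were read from lists chosen with earlier results of these data known. Of 46 assembly factors with a probe set (49 listed) 36 had a lower mean in the knockout and 10 a higher one, with a median of -0.137, and 0 passed adjustment. At an unadjusted p under 0.05 there were 8 lower and 0 higher, and 13 were lower and 1 higher without overlap. Over all genes these rules took 5.51% lower and 3.2% higher, and 9.04% lower and 6.02% higher. These factors are dimmer than the subunit genes, with a median level of 7.81, so the shares of the like-level class do not apply to them. Cox20, which guides a mitochondrially encoded subunit into complex IV, read 8.95, 9.42 and 8.96 in the knockout arrays, against 9.76, 9.65 and 9.58 in the wildtype arrays. Its difference was -0.555 (SE 0.134, limma adjusted p = 0.38). Ndufaf7, a methyltransferase that modifies a complex I subunit, differed by -0.512 (SE 0.146), and Sco2, a copper chaperone of complex IV, by -0.511 (SE 0.179). For complexes II and III, Sdhaf4 differed by -0.393 (SE 0.12) and Uqcc2 by -0.33 (SE 0.1). These 4 were chosen after their values were seen, and all 5 were lower without overlap.

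All 7 carriers and channels of the list had a lower mean, 2 of them at an unadjusted p under 0.05, with a median of -0.122. Among them Slc25a31 was at a level of 0.08 and Slc25a3 differed by -0.007. Of all genes 52.5% had a lower mean, and at that p 5.51% were lower and 3.2% higher. Of the 840 like-level genes 70.6% had a lower mean and 11.3% were lower at that p. The median level was 11.5 for this list and 10.17 for the citric acid cycle genes. Slc25a4, the ADP/ATP carrier typical of heart and muscle, differed by -0.242 (SE 0.091, limma adjusted p = 0.658). Of 13 citric acid cycle genes (14 listed) 11 had a lower mean, 0 at an unadjusted p under 0.05, with a median of -0.107, and Idh3a, a subunit of isocitrate dehydrogenase, had the smallest p, with a difference of -0.187 (SE 0.093). Cycs, the somatic cytochrome c, differed by -0.105 (SE 0.08). Of 18 genes for transcription and upkeep of the mitochondrial genome 9 had a higher and 9 a lower mean, 0 at an unadjusted p under 0.05, with a median of 0.01. Polg, the mitochondrial DNA polymerase, had the smallest p of these, with a difference of 0.298 (SE 0.155). Of 7 supercomplex and hypoxia-linked genes (8 listed) 3 had a higher and 4 a lower mean, and 1 was higher at an unadjusted p under 0.05. This was Higd1a, a hypoxia-induced protein that binds complex IV. It read 10.70, 10.41 and 10.54 in the knockout arrays, against 10.25, 10.41 and 10.22 in the wildtype arrays, a difference of 0.261 (SE 0.099, limma adjusted p = 0.658).

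Markers of cell types other than heart muscle were summed in each array. The hepatocyte markers summed to 40424, 39994 and 39834 in the knockout arrays, against 46518, 43795 and 39357 in the wildtype arrays, with 9 of 10 lower by mean. The erythroid markers summed to 15481, 17654 and 9495, against 17481, 20148 and 14820, with 6 of 7 lower by mean. All 8 macrophage markers had a lower mean, with sums of 1781, 1821 and 1060, against 2111, 2375 and 2156. The groups overlapped for the hepatocyte and erythroid sums and not for the macrophage sums. Their part in the lower means of the subunit genes was not tested.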

How the data were processed

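Mouse oligonucleotide arrays were hybridised with RNA that the labels call total RNA of single hearts. The deposited values were intensities on a linear scale, and GCOS and RMA appear in the submitters' processing notes without saying which of them made these values. No other step by the authors is given in the sources used here. From these values log2 was computed, with no further normalization. The 64 control probe sets were left out and 45037 tested with limma 3.58.1 in R 4.3.3 (lmFit, then eBayes with an intensity trend and robust estimation), group as the only term, two-sided, Benjamini-Hochberg adjusted p under 0.05. The procedure was tested on simulated data, with changes larger than the differences of nearly all members. The power for differences of the members' size was not tested. By annotation 34945 probe sets named a single gene and 932 named several, while 9160 had none. The members had 164 single-gene probe sets. A further 7 symbols of the rule, found only on probe sets of several genes, were not analysed here. Of the probe sets used, 10 have the suffix s and 6 the suffix x, and may share signal with related genes or pseudogenes.

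The members, lists and the intensity trend were chosen with earlier results of these data known. Genes were named by a rule: isoform pairs, the largest differences and smallest p per complex, core subunits, Sp3 and the leading member of each list. Others were named as non-overlapping or for their role. Alternatives covered variance model, array weights, scaling, dim probe sets, 16 units added before log2, the mean of probe sets, the sample letter as a block and each array left out. The correlation of deviations was 0.0096, 0.3081 and 0.4361 for the same-letter pairs a to c. Between unlike letters it ran from -0.3834 to 0.1284. Pairs b and c were thus the highest of all, while pair a was not above 0.1. The letters were not taken as pairing the samples, although these values do not settle whether they do. Promoter sequences are RefSeq's.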

Additional observations from a re-analysis of the deposited data

How the results depend on the processing

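No member passed the adjusted threshold under any of the alternatives, which differed in how many of the 45037 probe sets passed (14 as reported, 0 with no intensity trend, 25 with array weights). The members lower at an unadjusted p under 0.05 numbered 13 as reported, 0 with no intensity trend, 6 under quantile normalization, 24 under median centring and 20 with the sample letter as a block, a fit that called 258 probe sets. They numbered 6 to 25 as each array was left out (6 without knockout a, 25 without knockout b, 7 without knockout c, 8 without wildtype a). Those higher numbered 3 as reported, 1 with no intensity trend or with the mean of probe sets, 5 under quantile normalization and 1 to 2 as each array was left out. Members lower without overlap numbered 20 as reported, 15 under quantile normalization, 32 under median centring and 15 with the mean of probe sets. The shares of like-level genes, 11.3% lower at that p and 15.4% lower without overlap, were taken in the main fit only. The changes in these counts are therefore not read as a result about the members. Complex medians under quantile normalization were -0.038 (I), -0.155 (II) and -0.036 (V), and under median centring -0.185, -0.304, -0.241, -0.088 and -0.171 for complexes I to V. With the mean of probe sets complex II was at -0.071. As each array was left out, complex IV ran from -0.071 (without wildtype c) to 0.008, and complex V from -0.16 (without knockout b) to -0.067. The Cox8c over Cox8a difference was -0.06 with the mean of probe sets. Leaving out each array gave -0.65 to 0.185 for Cox4i2 over Cox4i1, -0.141 to 0.558 for Cox7a1 over Cox7a2 and -0.34 to 1.69 for Ndufa4l2 over Ndufa4. Of all 81 members 18 changed sign under quantile normalization, 10 under median centring, 10 with the mean of probe sets, 6 with array weights, 2 with 16 units added and 5 to 11 as each array was left out. Among the genes chosen by the naming rule, those under quantile normalization were Cox7a1 (-0.054), Cox4i1 (0.001), Cox8a (0.065), Ndufs7 (0.012), Uqcrc2 (0.02), Atp5d (0.029) and Atp5a1 (0.018). Under median centring they were Cox7a1 (-0.033), Ndufa4l2 (0.0 after rounding), Sdha (-0.035), Cox5a (-0.031) and Atp5j (-0.069). With array weights they were Cox8a (0.0 after rounding) and Atp5j (-0.007), and with 16 units added Cox7a1 (-0.005). With the mean of probe sets they were Cox8a (0.624), Ndufv1 (0.108), Sdhc (0.033) and Uqcrq (0.161), and outside the naming rule Ndufa10 was at 0.781. Leaving out each array gave ranges across 0, among the same genes, for Cox4i2 (-0.699 to 0.133), Cox7a1 (-0.227 to 0.429), Cox7b2 (-0.248 to 1.55), Ndufa4l2 (-0.596 to 1.29), Cox8a (-0.046 to 0.034), Ndufb4 (-0.108 to 0.735), Ndufs7 (-0.121 to 0.002), Sdha (-0.012 to 0.138), Uqcrc2 (-0.252 to 0.15), Atp5d (-0.104 to 0.007) and Atp5j (-0.112 to 0.099). With 16 units added Cox7b2 was at 0.07, Cox4i2 at -0.136, Ndufa4l2 at 0.245 and Ndufb4 at 0.152. The cause of these changes was not tested. The block changed no call among the members. Signal limits the dim genes: the spread between replicates was 1.267 in the dimmest class of probe sets, against 0.125 in the brightest. The count of members with a lower mean was 63 as reported and ran from 49 under quantile normalization to 73 under median centring. These are 60.5% and 90.1% of the members, against 53.2% and 86.0% of like-level genes under the same scalings.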

Other observations

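Many subunit genes were read by more than 1 probe set, and these did not always move together. Of the 81 members 48 had several single-gene probe sets. All probe sets of a gene had a lower mean in the knockout for 24 genes and a higher mean for 3, and for 21 genes the signs were mixed. Counting only probe sets at or above the median level, 42 genes had several, of which 23 were all lower, 1 all higher and 18 mixed. No gene had a pair of probe sets that differed in sign with both at an unadjusted p under 0.05. The 83 probe sets not used for the members had a lower mean in 54 cases, and 46 of the 67 at or above the median level did. Bright probe sets of opposite sign were found in Sdha, at 0.041 and -0.308, and in Cox5a, at 0.045, -0.093 and 0.254, examples chosen after the values were seen.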
